A study of Mus musculus with 159 samples.

Results

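Hepatic stellate cells (HSCs) were compared between livers carrying different treatment labels. The HSC segments, which are the DESMIN+ parts of the profiled tissue, made up 41 of the 159 segments with deposited values, and all 607 deposited genes were used for each. They were chosen by segment name alone, and by no measured value. Livers 1 and 3 are labelled treated CCl4, with fibrosis as the disease, and livers 2 and 4 are labelled control, with healthy as the disease. These labels differ from the series text and the study's methods, which give carbon tetrachloride (CCl4), a hepatotoxin that causes fibrosis, to every mouse for 6 weeks. According to those methods the mice were wild-type C57BL/6, male and female, 8 weeks old at the start, and received 2 injections a week. Of the 4 mice profiled, 2 were given MARCO+ bone marrow-derived macrophages (BMDMs) at weeks 3 and 5, and 2 were given saline. No label names the livers that received cells. The comparison below is therefore one of labels, with neither label assigned to the transfer, to saline or to an uninjured liver.

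HSCs lie in the space between the sinusoidal endothelium and the hepatocytes, where they store vitamin A as retinyl esters. After injury they lose these stores, become contractile and lay down the fibrillar collagens and other matrix of a scar. MARCO is a class A scavenger receptor of macrophages, and ROIs were picked by hand for high (MarcoHi) or low (MarcoLo) MARCO staining. Within each ROI an HSC segment was the area positive for DESMIN and negative for MARCO and for the macrophage protein IBA1. Such a segment is bulk tissue, so fewer cells of a type and less RNA per cell cannot be told apart. The question was whether HSCs of the livers with either label differed within ROIs of the same class.

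MarcoHi ROIs gave 13 HSC segments from the livers labelled treated CCl4 (6 from liver 1 and 7 from liver 3) and 12 from the livers labelled control (6 from each of livers 2 and 4). MarcoLo ROIs gave 10 (6 and 4) and 6 (3 and 3). The values are gene counts scaled so that the upper quartile (Q3) of the 607 genes equals 26.074 in every segment. The lowest recovered count in an HSC segment was 1, so a gene at this floor had a value between 0.869 and 8.69 that depended on the depth of its segment. The median segment of the livers labelled treated CCl4 had 2733 counts in MarcoHi ROIs against 3941 for control, and 3400 in MarcoLo ROIs against 6947.5. In MarcoHi ROIs the livers overlapped in depth, with medians of 2350 in liver 1 and 2733 in liver 3 against 2627.5 in liver 2 and 4974.5 in liver 4, so liver 4 alone was deeper. In MarcoLo ROIs the medians were 2872.5 and 5145.5 in livers 1 and 3 against 6637 and 7258 in livers 2 and 4. Both livers labelled treated CCl4 were thus shallower, and depth cannot be told apart from the label there. The median share of genes at 1 count was 21.4% against 15.7% in MarcoHi ROIs and 17.0% against 2.72% in MarcoLo ROIs. By liver, the MarcoLo shares were 22.3% and 8.32% in livers 1 and 3 against 2.31% and 3.13% in livers 2 and 4.

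**Figure D1:**
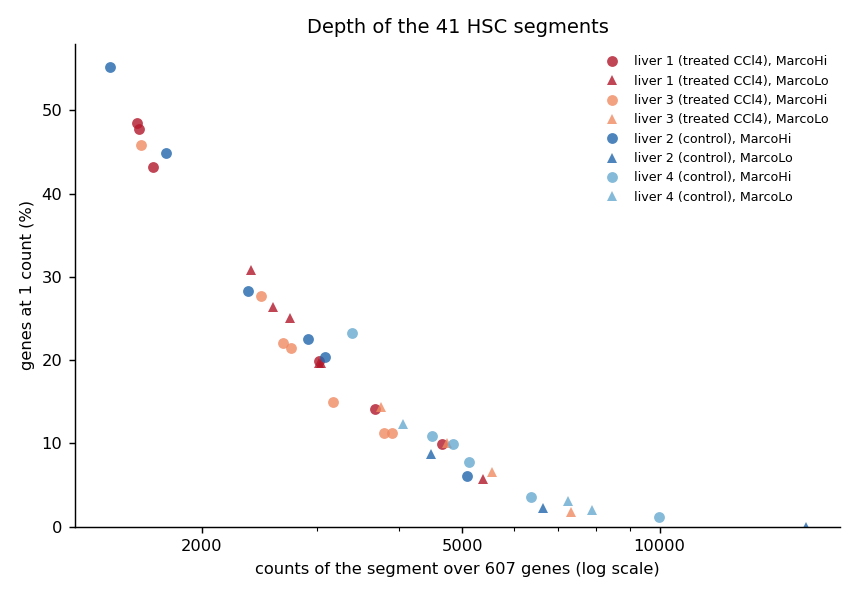
Each point is 1 of the 41 HSC segments, with its total count over 607 genes on the x axis (log scale) and the percent of these genes at 1 count on the y axis. Circles are MarcoHi and triangles MarcoLo ROIs, red and orange are livers labelled treated CCl4, and blue shades are livers labelled control. The share of genes at the floor ran from 0% in a control MarcoLo segment to 55.2% in a control MarcoHi segment.

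The segments held stellate cell transcripts under both labels. All 11 measured stellate cell markers were higher in HSC segments than in the Other segments (negative for DESMIN, MARCO and IBA1) of the same liver, in 4 of 4 livers and in both ROI classes. Their median log2 difference was 1.89 in MarcoHi and 2.44 in MarcoLo ROIs. Neither value was set against the other deposited genes, so whether the markers stood apart from those genes was not tested. Against MARCO+ segments (positive for MARCO and IBA1) all 11 averaged higher as well, with smaller medians of 1.18 and 1.54. *Des* itself, which encodes the stained protein, had the smallest difference from Other segments, 0.28 in MarcoHi and 0.48 in MarcoLo ROIs. It stood at 1 count in 48.8% of HSC segments, where a gene at this floor had a value between 0.869 and 8.69. In Other segments, with 75571 to 448875 counts, 0% of genes were at 1 count. The part of the floor in the differences of *Des* and the other markers was not tested. From MARCO+ segments *Des* differed by 0.44 and 0.19, and in MarcoLo ROIs it was higher in 3 of 4 livers (lowest -0.38). The deposited genes had been limited by the study to those found mainly in HSCs, so markers of other cells were largely absent. Of 32 macrophage markers only *Marco* was measured, of 14 portal fibroblast and mesothelial markers *Eln* and *Dpt*, of 6 smooth muscle markers *Smtn*, and of the hepatocyte, endothelial, cholangiocyte and lymphocyte markers none.

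Segment values were averaged per liver and ROI class, and log2(mean + 1) was compared between the 2 livers of each label with limma. No gene passed an adjusted p of 0.05 in either class (0% of 607 genes). edgeR and DESeq2 on the recovered counts also passed none, with 25 (4.12%) and 4 genes (0.659%) at an unadjusted p of 0.05 in MarcoHi ROIs, and 34 (5.6%) and 2 (0.329%) in MarcoLo ROIs. The lowest adjusted p by limma was 0.0861 in MarcoHi and 0.572 in MarcoLo ROIs. At an unadjusted p of 0.05, 33 genes were higher (5.44%) and 2 lower (0.329%) in the livers labelled treated CCl4 in MarcoHi ROIs. In MarcoLo ROIs 12 were higher (1.98%) and 23 lower (3.79%). Livers with the same label differed about as much as livers with different labels. The median absolute log2 difference between 2 livers was 0.313 within a label and 0.313 between labels in MarcoHi ROIs, and 0.282 and 0.318 in MarcoLo ROIs. With a median standard error of 0.305, only 3 genes in MarcoHi and 2 in MarcoLo ROIs were more than 1 log2 unit apart. An exact permutation of 2 against 2 livers cannot give a two-sided p below 0.333. Slides or runs that differ between livers cannot be told apart from the label.

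*Marco* had the largest difference of any gene in MarcoHi ROIs. Its mean normalized value was 34.1 in liver 1 and 33.8 in liver 3, against 8.84 in liver 2 and 12.9 in liver 4. The segments of livers 1 and 3 ranged from 7.45 to 69.5 with a median of 33.5 (7 counts), and those of livers 2 and 4 from 4.35 to 22.3 with a median of 10.1 (2.5 counts). Both livers labelled treated CCl4 were above both labelled control, although single segments overlapped. The log2 difference was 1.58 ± 0.33 (SE by limma, 2 livers a label). This SE, like the others of these fits, rests on the spread over both ROI classes and not on the MarcoHi livers alone. The adjusted p was 0.0861 by limma and the exact permutation p 0.333, the smallest this design allows. *Marco* passed under 6 alternatives, among them the fit without liver 4 (1.83, adjusted p = 0.0456). In MarcoLo ROIs the means were 11.8 and 8.20 in livers 1 and 3, and 4.71 and 9.93 in livers 2 and 4. Here the livers overlapped, and the log2 difference of 0.46 ± 0.33 turned to -0.010 without liver 2.

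The same transcript was measured in the other segments of these ROIs. In MARCO+ segments of MarcoHi ROIs, log2 *Marco* was 10.16 and 10.43 in livers 1 and 3 and 7.93 and 8.16 in livers 2 and 4. In Other segments it was 4.65 and 4.76 against 3.42 and 3.40. In MarcoLo ROIs, MARCO+ segments stood at 8.55 and 9.06 against 6.58 and 6.58, and Other segments at 3.69 and 4.89 against 3.12 and 3.19. Livers 1 and 3 were thus above livers 2 and 4 in both segment types and both classes. HSC segments carried less *Marco* than MARCO+ segments in 4 of 4 livers, by 4.83 log2 units in MarcoHi and 4.48 in MarcoLo ROIs on average. Against Other segments the difference was 0.28 ± 0.27 (SD, n = 4 livers) and -0.51 ± 0.86. Whether *Marco* in HSC segments came from neighbouring macrophages was not tested. The label difference of HSC segments minus that of Other segments was -0.19 ± 0.32 (adjusted p = 0.888, limma), a value that was positive under 4 alternatives.

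*Cryab*, a small heat shock protein that chaperones desmin filaments, came next. Its mean values in MarcoHi ROIs were 16.3 and 18.2 in livers 1 and 3, and 7.24 and 6.21 in livers 2 and 4. The lowest segment of livers 1 and 3 was at 8.69 and the highest of livers 2 and 4 at 10.1, with medians of 3 and 1.5 counts. The livers did not overlap, and the log2 difference was 1.24 ± 0.28 (adjusted p = 0.0861, limma). It passed where means were weighted by their segments and in both fits to single segments, in which 2 genes (0.329%) and 1 gene (0.165%) passed. The single-segment fits count segments of the same liver as near independent, so their p-values rest on segments and not on 2 livers a label. In MarcoLo ROIs the 4 livers lay between 8.07 and 9.34, a log2 difference of 0.11 ± 0.28. Other segments had log2 values of 2.68 and 2.99 against 2.74 and 2.66 in MarcoHi ROIs, where the livers overlapped.

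**Figure D2:**
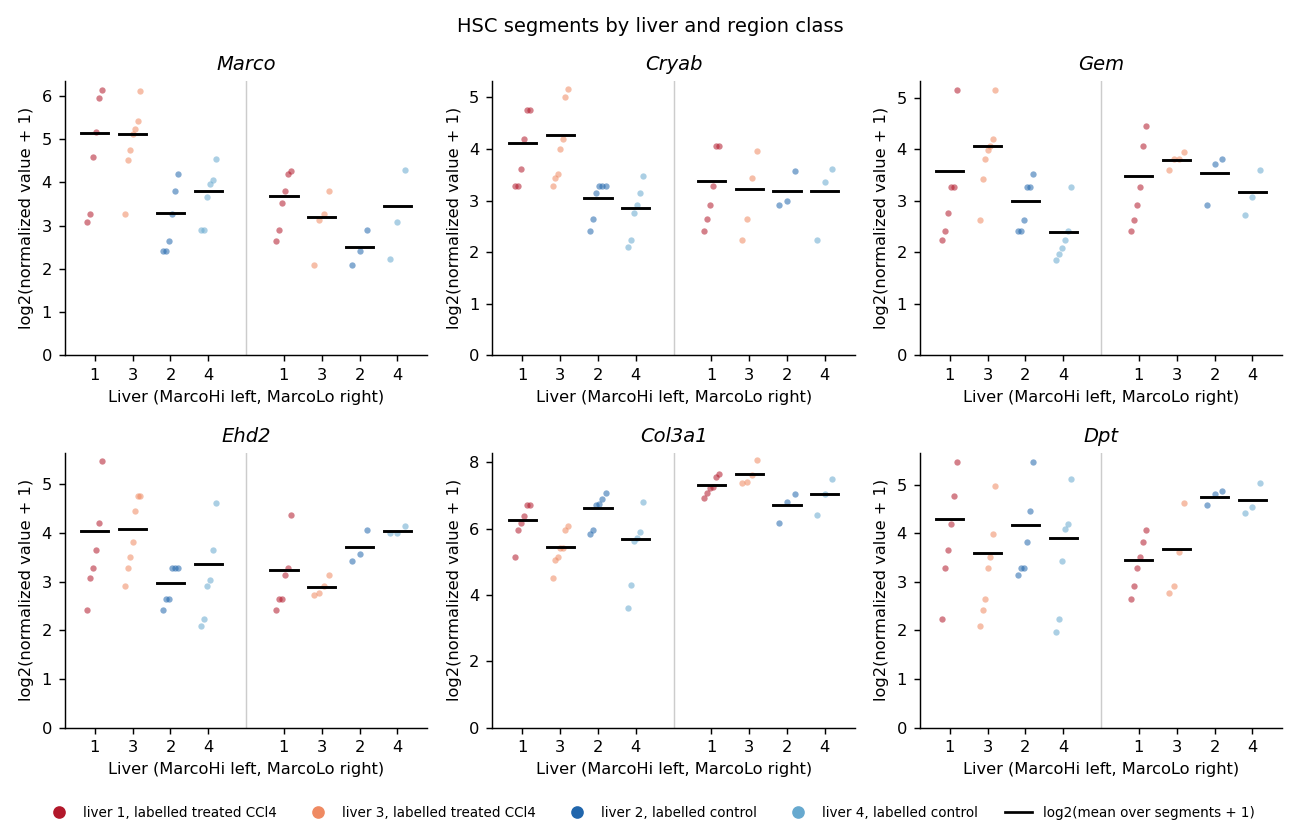
Normalized values of 6 genes in HSC segments, as log2(value + 1), by liver and ROI class. Points are segments, black bars are the log2 of the liver mean plus 1, red and orange mark livers labelled treated CCl4 and blue shades livers labelled control. For *Marco*, *Cryab*, *Gem* and *Ehd2* the bars of livers 1 and 3 stand above those of livers 2 and 4 in MarcoHi ROIs, and for *Ehd2* and *Dpt* below them in MarcoLo ROIs.

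The other genes at the upper end in MarcoHi ROIs were *Gem*, a small GTPase of the Ras superfamily, *Rhob*, a small GTPase of endosomes, and *Ehd2*, a membrane protein of caveolae. *Gem* averaged 11 and 15.8 in livers 1 and 3 and 6.95 and 4.25 in livers 2 and 4, a log2 difference of 1.14 ± 0.31 (adjusted p = 0.338, limma). *Rhob* averaged 24.5 and 21.5 against 9.71 and 14.4, and *Ehd2* 15.5 and 15.95 against 6.81 and 9.30. Both differed by 0.90 on the log2 scale. At the median segment, *Gem* rested on 3 counts under the treated label and 1 under the control label, and *Ehd2* on 2 and 1.5. *Cryab*, *Ehd2* and *Gem* were at 1 count in 26.8%, 29.3% and 39.0% of HSC segments, and liver 4 had the fewest genes at this floor in MarcoHi ROIs (median 8.81%, against 31.5%, 21.4% and 25.5% in livers 1, 3 and 2). The part of the floor in these differences was not tested.

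At the lower end in MarcoHi ROIs stood *Bmp5*, a bone morphogenetic protein made by HSCs. It averaged 16.2 and 13.7 in livers 1 and 3 and 37.8 and 18.6 in livers 2 and 4, a log2 difference of -0.79 ± 0.33. *Fermt2* (kindlin-2, an integrin activator) differed by -0.70, *Wipi1* (an autophagy protein) by -0.64, *Rsu1* (a Ras suppressor at focal adhesions) by -0.61 and *Flna* (the actin crosslinker filamin A) by -0.59. Without liver 2 the values were -0.30 for *Bmp5*, -0.31 for *Fermt2* and -0.25 for *Flna*. The genes at both ends were taken from those whose livers did not overlap, which were 68 of 607 in this direction (11.2%) and 131 in the other (21.6%). None of the genes named at the lower end passed the test, with adjusted p between 0.822 and 0.947 by limma.

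MarcoLo ROIs had other genes at both ends. *Dpt* (dermatopontin, a matrix protein that binds decorin and is high in portal fibroblasts) averaged 9.92 and 11.7 in livers 1 and 3 against 26.0 and 24.8 in livers 2 and 4. Its log2 difference of -1.16 ± 0.30 was the largest of this class (adjusted p = 0.572, limma). The treated segments had a median of 2 counts and a highest value of 23.5, and the control segments a median of 12 counts and a lowest value of 20.5. In MarcoHi ROIs *Dpt* averaged 18.5 and 11.04 against 17.1 and 13.9, and the livers overlapped. *Eln* (elastin), the other portal fibroblast marker measured, differed by 0.20 in MarcoLo ROIs.

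The remaining lower genes in MarcoLo ROIs were *Top1* (a DNA topoisomerase), *Gpx3* (a secreted glutathione peroxidase), *Ccnd2* (cyclin D2) and *Map1lc3a* (an autophagosome protein), with log2 differences of -0.99, -0.92, -0.89 and -0.87. The upper end was *Islr*, a secreted leucine-rich repeat protein of fibroblasts, at 15.9 and 19.9 in livers 1 and 3 against 11.2 and 6.21 in livers 2 and 4, a log2 difference of 1.00 ± 0.31. *Peak1* (a cytoskeletal pseudokinase), *Vezf1* (a zinc finger transcription factor), *Vcam1* (an adhesion molecule for leukocytes) and *Qpct* (glutaminyl cyclase) followed at 0.90, 0.89, 0.82 and 0.80. These 10 genes were likewise taken from those with livers apart, which were 94 of 607 genes in the upper (15.5%) and 141 in the lower direction (23.2%). Their adjusted p lay between 0.572 and 0.648 by limma.

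The 2 ROI classes placed the genes differently. *Ehd2* was higher by 0.90 in MarcoHi and lower by 0.81 in MarcoLo ROIs (8.47 and 6.43 against 12.1 and 15.5), with no overlap between livers in either class. The difference between its label differences was 1.71 ± 0.41 (adjusted p = 0.102, limma with liver as a block), the lowest p of this comparison. *Crtap*, a part of the collagen prolyl 3-hydroxylase complex, followed at 1.42 and *Egr1*, an immediate early transcription factor, at 1.36, both with an adjusted p of 0.414. The mean of *Egr1* over HSC segments did not exceed 8.69, the largest value of 1 count. For *Marco* and *Cryab* the values were 1.12 ± 0.41 and 1.13 ± 0.41 (adjusted p = 0.635). No gene passed, and 34 were higher (5.6%) and 4 lower (0.659%) at an unadjusted p of 0.05 by limma. With edgeR and DESeq2 0 passed, and 26 (4.28%) and 1 (0.165%) were below this p, with edgeR split into 13 higher and 13 lower. Re-centring each segment on its median log2 value gave 4 higher and 32 lower by limma. Without the replicate block of liver the values were the same, 0 genes passed and the adjusted p of *Ehd2* was 0.371.

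**Figure D3:**
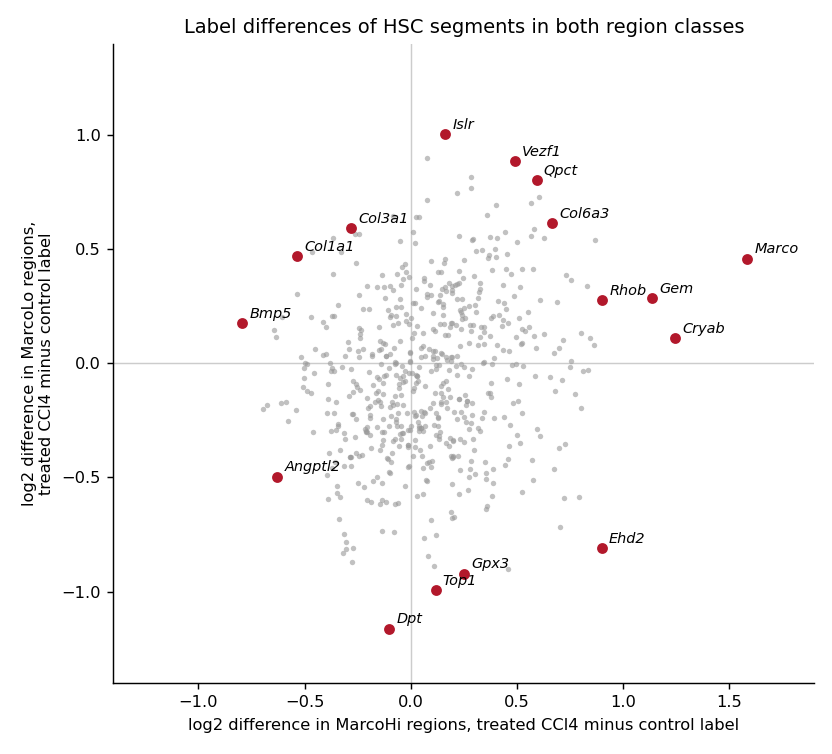
Log2 difference of HSC segments (treated CCl4 minus control label) in MarcoHi ROIs on the x axis and in MarcoLo ROIs on the y axis, 1 point for each of 607 genes, with 16 of the genes named in the text in red. *Marco* and *Cryab* lie farthest right at 1.58 and 1.24, *Dpt* lowest at -1.16 on the y axis, and *Ehd2* at 0.90 and -0.81.

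With both ROI classes averaged, *Marco* (1.02 ± 0.25, adjusted p = 0.437), *Gem* (0.71), *Pde1a*, a cyclic nucleotide phosphodiesterase (0.70), *Qpct* (0.70) and *Vezf1* (0.69) had the highest log2 differences with livers apart. The lowest were *Dpt* (-0.63), *Map1lc3a* (-0.57), *Angptl2*, an angiopoietin-like secreted protein (-0.56), *Pth1r*, the parathyroid hormone receptor of quiescent HSCs (-0.56), and *Dapk1*, a death-associated kinase (-0.55). No gene passed the test, and 25 were higher (4.12%) and 8 lower (1.32%) at an unadjusted p of 0.05. The livers were apart for 113 genes upwards (18.6%) and 104 downwards (17.1%). With 1 count subtracted 6 were higher and 19 lower. With edgeR and DESeq2 0 genes passed, and 45 (7.41%) and 7 (1.15%) were below an unadjusted p of 0.05. Without liver 4 *Marco* passed, with 1.38 (adjusted p = 0.0479). *Col6a3*, a chain of the microfibrillar collagen VI, had livers apart in both classes. It averaged 18.1 and 17.2 in livers 1 and 3 against 11.6 and 9.98 in livers 2 and 4 in MarcoHi ROIs, and 29.9 and 34.02 against 18.3 and 22.97 in MarcoLo ROIs. Its log2 differences were 0.67 and 0.62 and the average of both 0.64 ± 0.21 (adjusted p = 0.776, limma). The partner chains *Col6a1* and *Col6a2* stood at -0.18 and -0.23 in MarcoHi and at -0.10 and -0.40 in MarcoLo ROIs.

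The fibrillar collagens, the main scar proteins, had opposite mean directions in both classes. In MarcoHi ROIs 4 of the 5 measured chains were lower in the livers labelled treated CCl4, with a median log2 difference of -0.28 against 0.07 for all genes, and the livers overlapped for all 5. *Col1a1* averaged 22.4 and 23.1 in livers 1 and 3 against 49.1 and 22.7 in livers 2 and 4. *Col3a1* averaged 76.3 and 42.9 against 96.9 and 50.3. Liver 2 alone stood above the others in *Col1a1*, and without it the differences were 0.0073 for *Col1a1* and 0.18 for *Col3a1* in place of -0.53 and -0.28. Over 22 settings the median of the 5 chains ranged from -0.51 to 0.18 and was above 0 under 1.

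In MarcoLo ROIs 4 of the 5 chains were higher, with a median of 0.47 against -0.05 for all genes. *Col1a1* averaged 56.8 and 63.6 against 42.2 and 44.1, *Col1a2* 42.7 and 46.1 against 31.7 and 31.0, and *Col3a1* 157.5 and 198.9 against 104.2 and 131.6. For these 3 chains livers 1 and 3 were above livers 2 and 4, and for *Col5a1* (-0.26) they were below, against 15.5% and 23.2% of all genes. The median was above 0 under all 22 settings (0.34 to 0.61), including re-centring and the subtraction of 1 count. These settings reuse the same segments, so they add no separate support. No chain passed the test (adjusted p of *Col3a1* 0.760, limma), and the difference between the classes was -1.005 ± 0.43 for *Col1a1* (adjusted p = 0.635). The Other segments of MarcoLo ROIs had a *Col3a1* difference of 0.59 as well, with 4.12 and 4.11 in livers 1 and 3 against 3.44 and 3.62 in livers 2 and 4 on the log2 scale. The part of surrounding tissue in the HSC values was not tested.

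**Figure D4:**
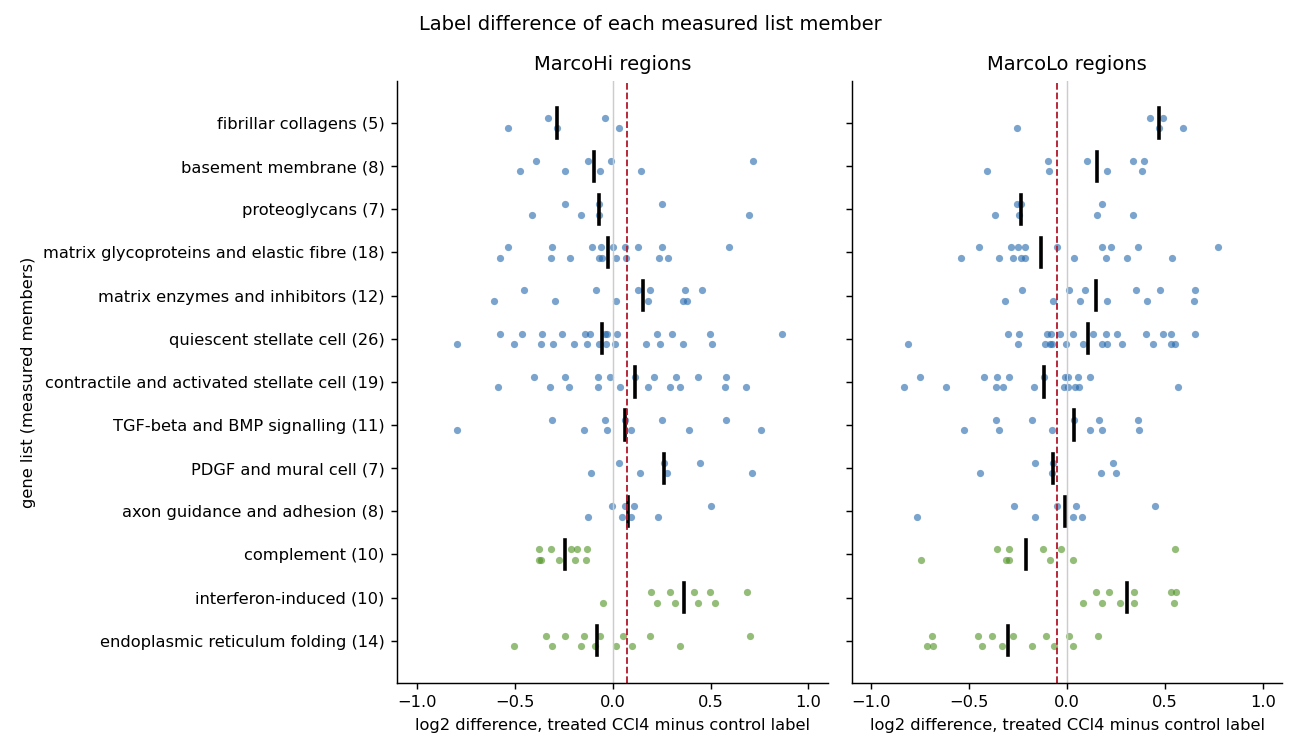
Log2 difference (treated CCl4 minus control label) of every measured member of 13 gene lists, in MarcoHi (left) and MarcoLo ROIs (right), with the number of members in brackets. Black bars are list medians, the red dashed line is the median of all 607 genes, and green lists were assembled after values had been seen. The fibrillar collagen median moves from -0.28 to 0.47, while the interferon-induced genes lie right of the dashed line in both panels, apart from *Ifi27l2a* in MarcoHi ROIs.

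Other matrix genes showed no common direction. Of 8 basement membrane genes 2 were higher in MarcoHi and 5 in MarcoLo ROIs, with *Lama2* (laminin alpha 2) at 0.72 in MarcoHi ROIs. *Col4a1* and *Col4a2* stood at -0.07 and -0.13 in MarcoHi and at 0.39 and 0.34 in MarcoLo ROIs. Of 7 proteoglycans 2 and 3 were higher, and of 18 matrix glycoproteins 9 and 8. *Dcn* (decorin), a collagen-binding proteoglycan and one of the most abundant transcripts, averaged 114.2 and 119.9 in livers 1 and 3 against 200.05 and 121.6 in livers 2 and 4 in MarcoHi ROIs. In MarcoLo ROIs it averaged 297.8 and 309.8 against 292.1 and 245.8. Its log2 differences were -0.41 ± 0.30 and 0.18 ± 0.30. Liver 2 alone stood above the others in MarcoHi ROIs, and without it the first was -0.054.

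*Ecm1*, a secreted protein that keeps TGF-beta latent, averaged 75.5 and 70.3 in livers 1 and 3 against 121.0 and 98.5 in livers 2 and 4 in MarcoHi ROIs, without overlap. The log2 difference was -0.58 ± 0.29 (adjusted p = 0.916, limma) in MarcoHi and -0.25 in MarcoLo ROIs. *Emilin1*, an elastic fibre glycoprotein, differed by -0.53 in MarcoHi and by 0.30 in MarcoLo ROIs, with livers apart in each. Of 12 matrix enzymes and inhibitors 8 and 9 were higher. *Adamtsl2*, an extracellular regulator of TGF-beta, stood at 0.65 and the elastic fibre protein *Efemp2* at 0.77 in MarcoLo ROIs.

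Genes of quiescent HSCs were divided, with 10 of 26 higher in MarcoHi ROIs (median -0.05) and 15 of 26 in MarcoLo ROIs (median 0.11). *Reln* (reelin) averaged 36.7 and 24.2 against 52.7 and 32.6 in MarcoHi and 97.4 and 77.5 against 83.7 and 45.3 in MarcoLo ROIs, and the livers overlapped in both. *Cxcl12*, a chemokine of stromal cells, averaged 68.4 and 59.9 against 98.6 and 84.4 in MarcoHi ROIs without overlap, a log2 difference of -0.51 ± 0.28, and differed by -0.10 in MarcoLo ROIs. *Rspo3*, a Wnt amplifier made by stellate cells, was at the upper end with 0.86 in MarcoHi ROIs, and *Pth1r* at the lower end with -0.81 in MarcoLo ROIs, but without liver 3 they stood at 0.24 and -0.19. *Lrat*, which makes the retinyl esters that HSCs store, differed by -0.04 in MarcoHi and by -0.30 in MarcoLo ROIs. *Des* differed by 0.30 ± 0.30 and 0.26 ± 0.30 with livers overlapping.

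Contractile and activated HSC genes had 11 of 19 members higher in MarcoHi (median 0.12) and 7 of 19 in MarcoLo ROIs (median -0.12). *Tpm2* (tropomyosin 2) had the highest value in MarcoHi ROIs, 0.68, and the smooth muscle gene *Tagln* the lowest in MarcoLo ROIs, -0.83. Over 22 settings the first median ranged from -0.12 to 0.31 and the second from -0.36 to 0.09, so neither had a settled direction. Of 11 genes of TGF-beta and BMP signalling 6 were higher in each class, with the receptor *Bmpr1a* at 0.76 in MarcoHi ROIs. Of 7 PDGF and mural cell genes 6 were higher in MarcoHi ROIs (median 0.26) and 3 in MarcoLo ROIs, against 59% and 44.2% of all genes. Their median log2 level in MarcoHi ROIs was 3.71 to 3.85 over livers. With all genes split by mean value into low, middle and high, 80.3% of the low and 58.7% of the middle genes were above 0 there. *Rgs5*, a regulator of G protein signalling in pericytes, averaged 43.8 and 51.7 in livers 1 and 3 against 29.3 and 28.0 in livers 2 and 4 in MarcoHi ROIs, a log2 difference of 0.71 ± 0.28. Of 8 axon guidance and adhesion genes 6 and 4 were higher, and of 6 chemokine and cytokine genes 3 and 3. The 5 stress genes had 4 members higher in MarcoHi and 3 in MarcoLo ROIs, and *Ndufa2*, the respiratory chain gene measured, stood at -0.08 and -0.74.

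On the values as deposited, direction followed the level of a gene. In MarcoHi ROIs 80.3% of the 203 genes of lowest level had a mean difference above 0, against 37.9% of the 203 of highest level, with 59% over all genes. In MarcoLo ROIs the shares were 57.1%, 33.5% and 44.2%. The median over all genes was 0.07 in MarcoHi and -0.05 in MarcoLo ROIs. Re-centring each segment on its median log2 value moved these to -0.12 and 0.10, a shift of the whole scale in which 8 genes were higher and 21 lower at an unadjusted p of 0.05 in MarcoHi ROIs, and 31 and 9 in MarcoLo ROIs. After 1 count was subtracted from every value the medians were -0.08 and -0.21, with 13 and 11 genes in MarcoHi and 1 and 31 in MarcoLo ROIs. With edgeR they were 17 and 8 in MarcoHi and 18 and 16 in MarcoLo ROIs. Re-centring thus turned the side of the excess in both classes, while subtraction left about equal numbers in MarcoHi ROIs and kept the lower genes in excess in MarcoLo ROIs. With 1 count subtracted, the medians of genes of low, middle and high level were 0.03, -0.07 and -0.16 in MarcoHi ROIs. In MarcoLo ROIs they were -0.20, -0.25 and -0.21, and did not step down steadily.

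**Figure D5:**
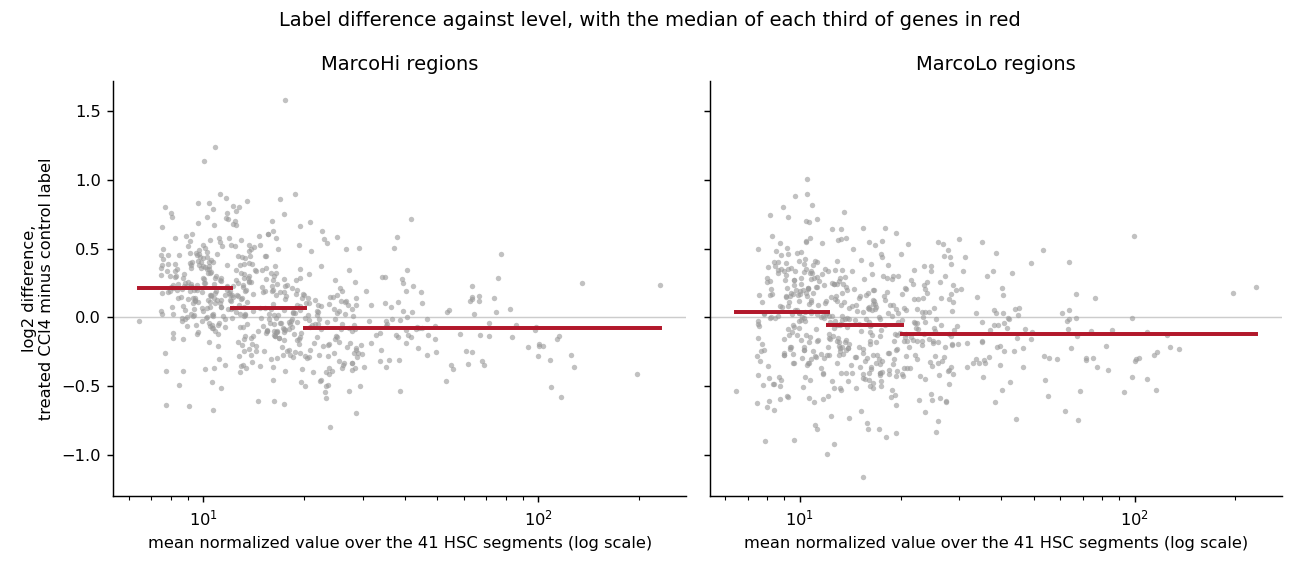
Log2 difference (treated CCl4 minus control label) of 607 genes against their mean normalized value over the 41 HSC segments (log scale), in MarcoHi (left) and MarcoLo ROIs (right). Red lines are the medians of the genes of low, middle and high level, which step down from 0.22 to -0.08 in MarcoHi and from 0.04 to -0.12 in MarcoLo ROIs.

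The label difference of HSC segments was also set against that of the Other segments of the same ROIs. Averaged over both classes, no gene differed at an adjusted p of 0.05 (0% of 607 genes), and 6 genes had a higher (0.988%) and 31 a lower value in HSC segments (5.11%) at an unadjusted p of 0.05. The fit took the 2 ROI classes of a liver as separate replicates. With the differences averaged per liver, 0 genes passed and 30 were below this unadjusted p by limma. The SEs below come from the first of these fits. *Flna* stood at -0.75 ± 0.20, *Dpt* at -0.78 ± 0.22, the cytokine inhibitor *Socs2* at -0.71 ± 0.19 and *Hspa5*, the main chaperone of the endoplasmic reticulum, at 0.76 ± 0.22, all with an adjusted p of 0.532 (limma). *Cryab* stood at 0.48 ± 0.19 (adjusted p = 0.632). For *Flna* the Other segments had 3.02 and 3.08 in livers 1 and 3 against 2.80 and 2.66 in livers 2 and 4 in MarcoHi ROIs, and the HSC segments 4.52 and 4.39 against 5.38 and 4.70 on the log2 scale. Its direction was thus opposite in the 2 segment types of MarcoHi ROIs, where the difference of HSC segments was -0.59, and -0.25 without liver 2. Other segments had 75571 to 448875 counts and HSC segments 1448 to 16715, and 0% of genes were at 1 count in every Other segment.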

How the data were processed

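GeoMx mouse whole transcriptome probes were hybridized to sections of fixed liver, and barcodes were collected per segment and sequenced (bcl2fastq 2.20.0.422 per the labels). Per the methods, the authors deduplicated reads to counts by molecular identifier, filtered segments and probes against negative probes, normalized to Q3, and cut the genes to those found mainly in HSCs because hepatocyte RNA was ambient. The deposited values (unit: signal, Q3-normalized counts) were whole multiples of 1 step per segment within 1e-06 in 96513 of 96513 cases, and dividing by this step gave the counts. A segment's count sets its precision: the median HSC segment had 3675 counts, and 6 HSC segments had a 75th percentile of only 3.

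Liver, label, segment and ROI class came from sample titles and descriptions, and 1 liver 4 ROI without a class in its library name took it from the titles. Segments of a liver and class were averaged, giving 8 means, and log2(mean + 1) was fitted with limma 3.58.1 (R 4.3.3) over 4 groups with liver as a random block (duplicateCorrelation, 0.146), Benjamini-Hochberg over 607 genes, threshold 0.05. The difference between ROI classes used liver as a fixed block, and that from Other segments liver by class. No liver holds both labels, so the labels cannot be paired. Replicates are livers, 2 a label, except that the fit against Other segments took the 2 ROI classes of a liver as separate replicates. No 2 HSC segments had identical values. Genes are named where they passed the test, were among the 5 highest or lowest log2 differences with non-overlapping livers and a mean above 8.69 (the largest value of 1 count), ended a list, or are HSC genes of the study. *Col1a2*, *Col4a1*, *Col4a2*, *Col6a1*, *Crtap*, *Egr1*, *Eln*, *Socs2*, *Hspa5* and further list members were named after their values were seen. *Bmpr1a*, *Des*, *Egr1* and *Socs2* had means that did not exceed 8.69. The members and lists were chosen with earlier results of these data known, and the complement, interferon-induced and endoplasmic reticulum lists after values were seen. Alternatives were pseudocounts of 0 and 5, a filter on low values (561 genes), a common floor, 1 count subtracted, means of log2 values, medians, weights, re-centring, leaving out livers or segments, other blocks, edgeR 4.0.16 and DESeq2 1.42.0 on recovered counts, limma on single segments, and lme4 1.1.37 with lmerTest 3.1.3. The scripts were tested on simulated data without variation between livers, so this could not show how often the fits err when livers differ. Tables were made with pandas 2.3.3 and numpy 2.4.6 in Python 3.11.15, permutations with scipy 1.17.1, and plots with matplotlib 3.10.9.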

Additional observations from a re-analysis of the deposited data

Results flagged for a closer look

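Segments that stood apart from the others of their label were searched for among the named genes in MarcoLo ROIs, where 6 control and 10 treated segments were tested with Dixon's ratio. Of 104 gene and label pairs tested, 10 had such a segment. The rate of about 1 in 20 set for this ratio assumes normally distributed values. Values here are multiples of 1 count pooled over 2 livers, so the 10 cannot be set against that rate. Among the 6 control segments, *Marco* was 18.6 (10 counts) in 1 segment of liver 4 against 7.45 in the next, and *Flna* was 26.1 against 19.6 and *Gpx3* 29.8 against 15.2 in liver 4. In liver 2 the highest segment had *Islr* at 18.3 against 8.69, *Ccnd2* at 19.6 against 11.2 or *Tpm2* at 19.6 against 9.78. Among the 10 treated segments, the highest of *Ehd2* was 19.6 (3 counts) against 8.69, that of *Rhob* 65.2 against 30.4 and that of *Rsu1* 41.7 against 21.7, each in liver 1. *Vcam1* was lowest in a liver 1 segment at 4.35 (1 count) against 13.0 in the next.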

How the results depend on the processing

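No gene passed in MarcoLo ROIs, between ROI classes or against Other segments under any setting tried. In MarcoHi ROIs 1 gene passed with a pseudocount of 5, with a common floor and with only the means compared (*Marco*, adjusted p = 0.0277, 0.0191 and 0.00175 by limma), and 1 with the linear mixed model (*Cryab*, adjusted p = 0.0221), of whose 607 fits 305 were singular. With means weighted by segments and with limma on single segments 2 passed, *Marco* and *Cryab*. Leaving out 1 liver gave 0 to 1 genes in MarcoHi ROIs and over both classes, the 1 being *Marco* without liver 4. In MarcoHi ROIs the difference of *Marco* ranged from 1.18 to 2.10 and that of *Cryab* from 0.89 to 1.88. Without the replicate block of liver, 0 genes passed and 29 were below an unadjusted p of 0.05 for the difference between ROI classes (38 with it), and 0 and 33 against Other segments (37 with it). No label pairs the livers.

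Of 91 gene results followed, 82 kept their direction under every setting. In MarcoHi ROIs *Des* was -0.033 with medians over segments, and with 1 liver left out *Col1a1* ranged from -1.08 to 0.0073 (without liver 2) and *Col3a1* from -0.75 to 0.18 (without liver 2; 0.12 without liver 3). In MarcoLo ROIs *Marco* ranged from -0.010 (without liver 2) to 0.93, *Des* from -0.015 (without liver 4) to 0.53 and *Ecm1* from -0.54 to 0.040 (without liver 3), while *Cxcl12* was 0.062 after re-centring, and *Cryab* -0.15 with 1 count subtracted and -0.083 with medians. *Marco* against Other segments was 0.031 with 1 count subtracted and 0.24 with medians, and ranged from -0.64 to 0.25 (without liver 3; 0.15 without liver 4). The cause of these turns was not tested. Counts at an unadjusted p of 0.05 were 20 to 50 in MarcoHi ROIs apart from DESeq2 (4), and 27 to 64 against Other segments, the highest without liver 4. Removing the 6 segments with a 75th percentile of 3 counts, chosen after seeing the data, left 0 genes passing and 23 at an unadjusted p in MarcoHi ROIs in place of 35. Depth limits genes near 1 count, and 2 livers a label limit all comparisons.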

Other observations

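Among genes grouped after their values had been seen, 10 interferon-induced genes were on the same side in nearly all comparisons, as a description with no test. In MarcoHi ROIs 9 of 10 were higher in the livers labelled treated CCl4, with a median log2 difference of 0.37 against 0.07 for all genes, and 4 had livers that did not overlap (21.6% of all genes in this direction). In MarcoLo ROIs 10 of 10 were higher, with a median of 0.31 against -0.05, and 6 had livers apart (15.5% of all genes). The medians were above 0 under all 22 settings, from 0.15 to 0.57 and from 0.18 to 0.46. These settings reuse the values by which the genes were grouped, so they add no separate support. The median log2 level of the 10 genes in MarcoHi ROIs was 3.77 and 4.04 in livers 1 and 3 against 3.67 and 3.61 in livers 2 and 4. In MarcoLo ROIs it was 3.998 and 4.353 against 3.995 and 3.990, with liver 1 close to livers 2 and 4. These are low to middle levels. In MarcoHi ROIs 80.3% of the 203 genes of lowest level were above 0 (median 0.22), and 58.7% of the 201 of middle level (median 0.07). The MarcoLo shares were 57.1% (median 0.04) and 41.8% (median -0.06). The part of level in this list was not tested. *Ifitm1*, an antiviral membrane protein, had log2 levels of 5.05 and 4.72 in livers 1 and 3 against 4.28 and 4.50 in livers 2 and 4 in MarcoHi ROIs, and 5.24 and 4.97 against 4.20 and 4.94 in MarcoLo ROIs. *Tapbp* (tapasin, which loads peptides onto class I molecules) differed by 0.56 in MarcoLo ROIs. None passed the test.

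Of 10 complement genes, 10 were lower in MarcoHi ROIs (median -0.24, 2 with livers apart against 11.2% of all genes) and 8 in MarcoLo ROIs (median -0.21, 3 apart downwards and 1 upwards, against 23.2% and 15.5% of all genes), led by *C1ra* at -0.75, while *Colec10* stood at 0.55. Of 14 folding and collagen-modifying genes of the endoplasmic reticulum 11 were lower in MarcoLo ROIs (median -0.30), 7 of them with livers apart (23.2% of all genes), among them *Crtap* (-0.72), *Pdia4* (-0.69) and *Ppib* (-0.68). In MarcoHi ROIs 8 were lower (median -0.08), and *Crtap* stood at 0.70. Both lists were also assembled after the values had been seen. Both were of high level, with list medians of 5.06 to 6.10 on the log2 scale over livers and classes. Among the 203 genes of highest level, 37.9% were above 0 in MarcoHi (median -0.08) and 33.5% in MarcoLo ROIs (median -0.12). The part of level in the 2 lists was not tested.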
